A study of Homo sapiens with 8 samples.

Results

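The DNA glycosylases UNG, TDG, MBD4, OGG1, MUTYH, NTHL1, NEIL1, NEIL2 and NEIL3 and the abasic site endonuclease APEX1 were followed as 10 genes, chosen by name, among the 38148 genes measured by mRNA-seq in HT29 cells, a human colorectal cancer cell line. HT29 cells were either left untreated or given 1 µM selumetinib, an inhibitor of the kinase MEK, for 24 h. The cells were then fixed with glyoxal, stained for the G2 protein cyclin B1 (CCNB1) and sorted by flow cytometry into a fraction without and a fraction with the protein. Crossing the 2 treatments with the 2 fractions gave 4 groups of 2 libraries each. All groups share this 1 cell line and the fixation, staining and sorting. The labels do not say whether the 2 replicates of a group came from separate cultures (biological replicates are named for the equivalent experiment in another cell line), so p-values measure only the spread between these libraries, which may be technical. In all 8 samples the title contradicts the description, giving the other treatment and the other fraction, and the groups here follow the descriptions, which match the columns of the deposited table. If the titles held instead, the selumetinib responses of the 2 fractions would trade places with opposite signs, as would the fraction differences of the 2 treatments, and only the difference between the responses would keep its sign. Grouped by the descriptions, CCNB1 mRNA was 4.25-fold higher in untreated and 33.8-fold higher in treated CCNB1-positive than CCNB1-negative cells, and of 10 ERK pathway target genes 9 were lower and 1, EGR1, was higher with selumetinib in each fraction. Grouped by the titles, the same values would put CCNB1 mRNA lower in the CCNB1-positive fractions and 9 of the 10 ERK targets higher with the MEK inhibitor. These values were not used to assign groups. The labels also name RPMI-1640 as the growth medium, whereas the methods name McCoy's 5A.

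Base excision repair removes single damaged or misplaced bases. A DNA glycosylase cuts the base from its sugar, and APEX1 then cuts the strand at the abasic site so that a polymerase and a ligase can fill and seal the gap. UNG takes out uracil, which arises by misincorporation in replication and by deamination of cytosine. TDG and MBD4 take thymine and uracil out of mismatches with guanine, and TDG also takes out the oxidized forms of 5-methylcytosine. OGG1 removes 8-oxoguanine, MUTYH removes the adenine placed opposite 8-oxoguanine, and NTHL1, NEIL1, NEIL2 and NEIL3 remove oxidized bases.

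On GRCh38, as the deposited table gives them, UNG spans chr12:109097574-109110992, TDG chr12:103965822-103988874, OGG1 chr3:9749944-9788219, NTHL1 chr16:2039815-2047866 on the minus strand, NEIL1 chr15:75346955-75357114, NEIL3 chr4:177309874-177362936 and APEX1 chr14:20455191-20457772. MUTYH (chr1:45329163-45340470) and MBD4 (chr3:129430944-129440179) are also on the minus strand.

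The promoter sequences of UNG, NEIL3 and MBD4 are shown because these were the 3 members whose selumetinib response differed between the fractions in the test described further on. They are RefSeq sequences on GRCh38.p14, 250 bases before to 50 bases after a transcription start, read on the strand of the gene. Capitals mark matches, on either strand, to 3 motifs of cell cycle promoters: the E2F-type letters TTTCCCGC, TTTCGCGC, TTTGCCGC or TTTGGCGC, the letters TTTGAA of the cell cycle homology region, and the CCAAT box. UNG has a pair of such windows, and the deposited values do not separate the transcripts that start there.
UNG, chr12:109097347-109097646, plus strand: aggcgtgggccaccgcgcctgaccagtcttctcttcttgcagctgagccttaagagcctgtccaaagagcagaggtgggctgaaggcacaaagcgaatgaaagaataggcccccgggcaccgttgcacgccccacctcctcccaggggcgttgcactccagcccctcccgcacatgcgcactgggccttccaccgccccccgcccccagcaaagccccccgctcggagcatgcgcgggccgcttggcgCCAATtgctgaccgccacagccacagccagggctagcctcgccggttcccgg
UNG, chr12:109097922-109098221, plus strand: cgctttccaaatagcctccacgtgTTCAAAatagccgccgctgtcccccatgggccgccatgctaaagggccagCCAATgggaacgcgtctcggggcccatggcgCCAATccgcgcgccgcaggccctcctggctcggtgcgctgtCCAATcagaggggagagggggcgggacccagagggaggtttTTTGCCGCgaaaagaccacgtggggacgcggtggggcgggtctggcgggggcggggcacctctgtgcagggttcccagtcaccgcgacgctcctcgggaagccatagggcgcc
NEIL3, chr4:177309624-177309923, plus strand: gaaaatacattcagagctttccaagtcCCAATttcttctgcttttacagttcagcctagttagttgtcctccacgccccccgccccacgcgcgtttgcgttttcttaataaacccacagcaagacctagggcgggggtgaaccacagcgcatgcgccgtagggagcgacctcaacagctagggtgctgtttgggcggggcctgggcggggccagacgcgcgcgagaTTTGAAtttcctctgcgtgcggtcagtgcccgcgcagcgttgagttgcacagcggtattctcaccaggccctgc
MBD4, chr3:129439899-129440198, minus strand: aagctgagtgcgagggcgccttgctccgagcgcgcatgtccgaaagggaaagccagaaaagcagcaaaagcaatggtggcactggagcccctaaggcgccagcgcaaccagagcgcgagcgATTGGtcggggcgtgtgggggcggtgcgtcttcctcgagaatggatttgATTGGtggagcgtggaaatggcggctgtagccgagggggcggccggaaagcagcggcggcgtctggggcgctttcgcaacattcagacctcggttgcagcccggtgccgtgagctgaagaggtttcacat

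Of the 14 windows searched for 9 members, only the second UNG window held an E2F-type match, TTTGCCGC, whose first base lay 63 bases before the start. That window also held 3 CCAAT boxes and a TTTGAA match on the minus strand. The NEIL3 window held TTTGAA 24 bases and CCAAT 223 bases before the start. MBD4 held 2 CCAAT boxes, read as ATTGG on the strand shown, and neither of the other motifs. TTTGAA was found in 3 of the 14 windows, namely those of UNG and NEIL3 and 1 of MUTYH, and CCAAT in 10. For comparison, 3.31% of 35116 RefSeq promoter windows of this length held an E2F-type match, 15.2% held TTTGAA and 34.6% held CCAAT. The motifs share no bases with each other in these matches, and a match describes letters only.

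Between 12696860 and 23916160 reads per library fell on genes, and whole reads could be recovered for 100% of the values. Mitochondrial transcripts took 4.44% to 7.80% of reads in the untreated and 11.9% to 14.8% in the treated libraries, and MALAT1 took 0.303% to 0.386% and 2.01% to 4.42%. The part of these shares in the results was not tested beyond rescaling to the other reads. Of the 10 colon epithelial markers, 9 were at 1 RPM or more in every library, and their summed level was 5422 to 12067 RPM. RPM are reads scaled to the reads on genes of each library. The immune, fibroblast and endothelial lists summed to 5.35 to 11.8, 0.628 to 5.71 and 1.05 to 1.65 RPM. CCNB1 mRNA averaged 11.83 and 13.92 on the log2 scale in untreated negative and positive cells and 7.57 and 12.65 in treated ones. Values of genes are log2 reads scaled to the largest library throughout, with 1 RPM at 4.58. Differences were tested with limma over the 14219 genes averaging at least 1 RPM, with Benjamini-Hochberg adjustment over all of them and a threshold of 0.05. NEIL1 did not reach that level, so 9 of the 10 members were tested. In bulk RNA, fewer cells of a kind and less RNA per cell cannot be told apart.

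In levels per length, APEX1 mRNA stood highest in every group, at 69.3 ± 4.71 (SD, n = 2) RPM per kb of merged exon in untreated CCNB1-negative cells and 36.2 ± 0.675 in treated CCNB1-positive cells. UNG had rank 2 in untreated CCNB1-negative cells with 41.0 ± 0.367 RPM per kb, rank 4 in untreated CCNB1-positive cells with 13.3 ± 0.0149, and ranks 6 and 7 in the treated fractions with 7.54 ± 1.46 and 6.94 ± 0.609. NTHL1, at 14.4 to 25.5 RPM per kb, had rank 2 or 3 and MBD4, at 8.10 to 19.8, rank 3 or 4 in all groups. NEIL1 was lowest in all 4 groups, at 0.0186 to 0.258 RPM per kb. In the untreated groups the ranges of neighbours in this order did not overlap. In treated CCNB1-negative cells the ranges of TDG and MBD4, of MBD4 and MUTYH, of MUTYH and UNG, and of NEIL2 and NEIL3 overlapped, and in treated CCNB1-positive cells those of TDG and NEIL3 and of NEIL3 and UNG did. Ranges come from 2 libraries each. Merged exons take in all annotated isoforms (1886 bases for APEX1 and 4490 for UNG), so the ranks depend on the annotation. In RPM without length, UNG stood above APEX1 in untreated CCNB1-negative cells (184 against 131) and below it in the other groups. The spread of the group means was widest for NEIL3 and NEIL1, at 3.72 and 3.71 log2 units, and narrowest for OGG1, at 0.15.

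**Figure D1:**
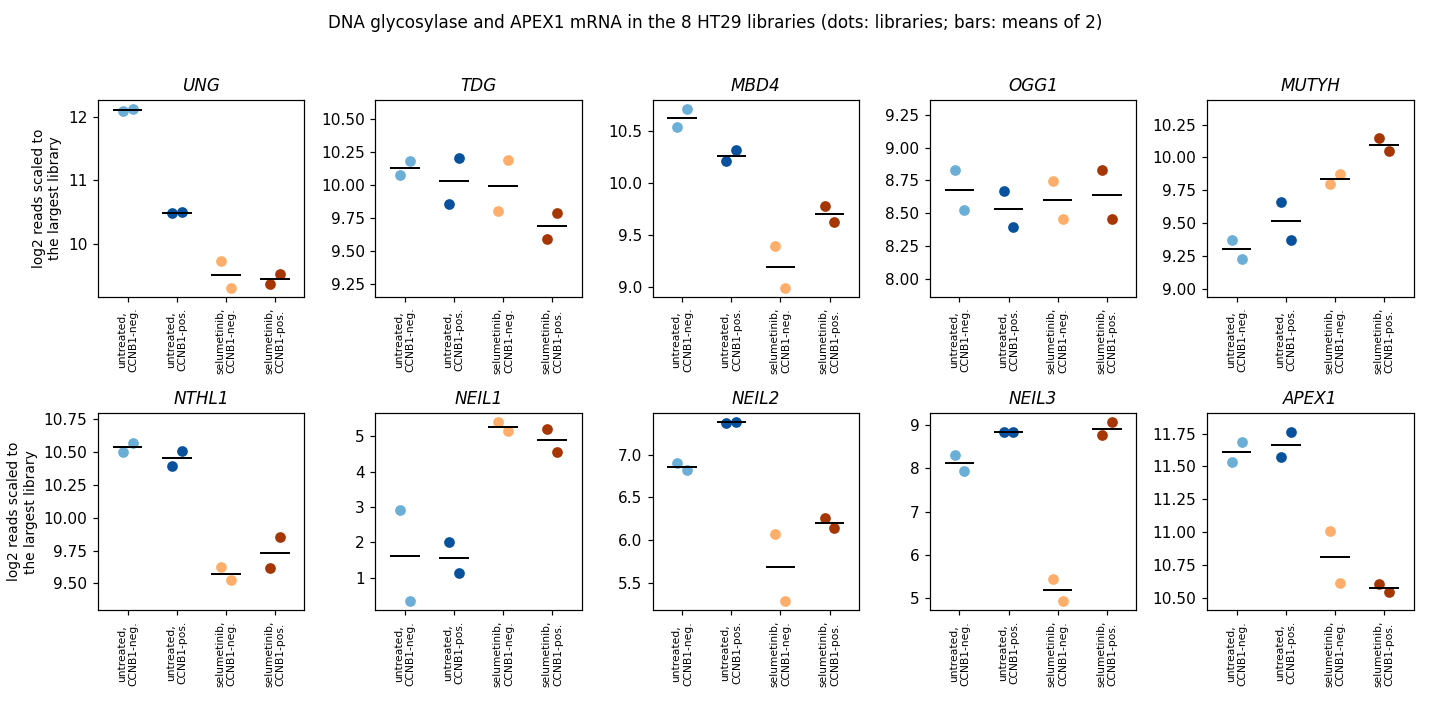
Log2 values (reads scaled to the largest library) of the 10 genes in the 8 libraries, 1 panel per gene with its own vertical range. Dots are libraries and bars the means of 2. UNG is highest in untreated CCNB1-negative cells, NEIL3 lowest in treated CCNB1-negative cells, and OGG1 spans 0.15 log2 units between group means.

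Selumetinib was compared with no treatment within each fraction to see which of these repair genes differed with the drug. The part of a changed mix of cell cycle phases within a fraction was not tested. In CCNB1-negative cells 6 of the 9 members tested fell (UNG, NEIL3, MBD4, NEIL2, NTHL1 and APEX1), 1 rose (MUTYH), and OGG1 and TDG did not pass. Of all genes tested, 35.8% were called lower and 38.2% higher in that comparison, 74.1% in all. In CCNB1-positive cells 5 fell (UNG, APEX1, NEIL2, NTHL1 and MBD4) and MUTYH rose, against 27.3% of all genes lower and 38.0% higher, 65.3% in all. Members had a median log2 difference of -0.96 without and -0.56 with the CCNB1 protein, beside 0.05 and 0.17 over all genes tested. The same 5 were lower in both fractions, as were 3704 of the 14219 genes.

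UNG, the main uracil glycosylase, showed the steepest drop among UNG, TDG and MBD4. Its log2 values were 12.09 and 12.12 in untreated CCNB1-negative, 10.48 and 10.49 in untreated CCNB1-positive, 9.72 and 9.30 in treated CCNB1-negative and 9.36 and 9.52 in treated CCNB1-positive libraries. Every treated library lay below every untreated one, and the untreated CCNB1-negative libraries lay far above the rest. Selumetinib lowered UNG 6.04-fold in CCNB1-negative cells (log2 difference -2.59, SE 0.16, limma adjusted p = 1.2e-08) and 2.06-fold in CCNB1-positive cells (-1.04, SE 0.16, adjusted p = 7.5e-05). In untreated cells, UNG was 3.07-fold lower in the CCNB1-positive than in the CCNB1-negative fraction (-1.62, SE 0.16, adjusted p = 3.0e-05). In treated cells the fractions overlapped, with a difference of -0.07 (95% interval -0.41 to 0.28, adjusted p = 0.78). The selumetinib response differed between the fractions by 1.55 (SE 0.23, adjusted p = 0.00052).

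MBD4, which acts at deaminated CpG sites, fell less steeply than UNG. Library by library, its log2 values were 10.54 and 10.72 in untreated CCNB1-negative, 10.21 and 10.32 in untreated CCNB1-positive, 9.39 and 8.99 in treated CCNB1-negative and 9.79 and 9.62 in treated CCNB1-positive libraries. The 4 groups did not overlap each other, with treated CCNB1-negative cells lowest. IFT122, on the opposite strand, shares 8.32% of the MBD4 exon bases and had log2 values between 9.28 and 10.22. Among treated cells IFT122 was higher in the CCNB1-positive fraction by 0.75 (limma adjusted p = 0.0056). Its selumetinib responses were 0.14 (adjusted p = 0.46) in CCNB1-negative and 0.51 (adjusted p = 0.014) in CCNB1-positive cells. The libraries came from a directional kit, per the methods, but whether the counting used the strand was not stated. MBD4 was 2.71-fold lower with selumetinib in CCNB1-negative cells (-1.44, SE 0.17, adjusted p = 3.1e-06) and 1.48-fold lower in CCNB1-positive cells (-0.56, SE 0.17, adjusted p = 0.0088). The second of these did not pass with scaling to nuclear reads without MALAT1 (-0.31, adjusted p = 0.11), without untreated CCNB1-positive replicate 2 (adjusted p = 0.066) or without treated CCNB1-positive replicate 2 (adjusted p = 0.071). Among treated cells MBD4 was higher in the CCNB1-positive fraction (0.51, adjusted p = 0.042) and the responses differed by 0.87 (adjusted p = 0.046), but both values stood close to the threshold. Of the 8 fits that left out 1 library, the fraction difference passed in 3, those without either untreated CCNB1-negative library or without treated CCNB1-negative replicate 1, and stood between 0.31 and 0.59 in the others (adjusted p up to 0.29). The difference of the responses passed only without treated CCNB1-negative replicate 1 and stood between 0.67 and 0.96 in the other 7 (adjusted p up to 0.19).

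TDG varied little, with log2 values of 10.08 and 10.18 in untreated CCNB1-negative, 9.85 and 10.20 in untreated CCNB1-positive, 9.80 and 10.19 in treated CCNB1-negative and 9.59 and 9.79 in treated CCNB1-positive libraries. Only the treated CCNB1-positive libraries lay below all others. No TDG comparison passed, and the responses were -0.13 (95% interval -0.51 to 0.24, adjusted p = 0.50) in CCNB1-negative and -0.34 (-0.71 to 0.04, adjusted p = 0.10) in CCNB1-positive cells.

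**Figure D2:**
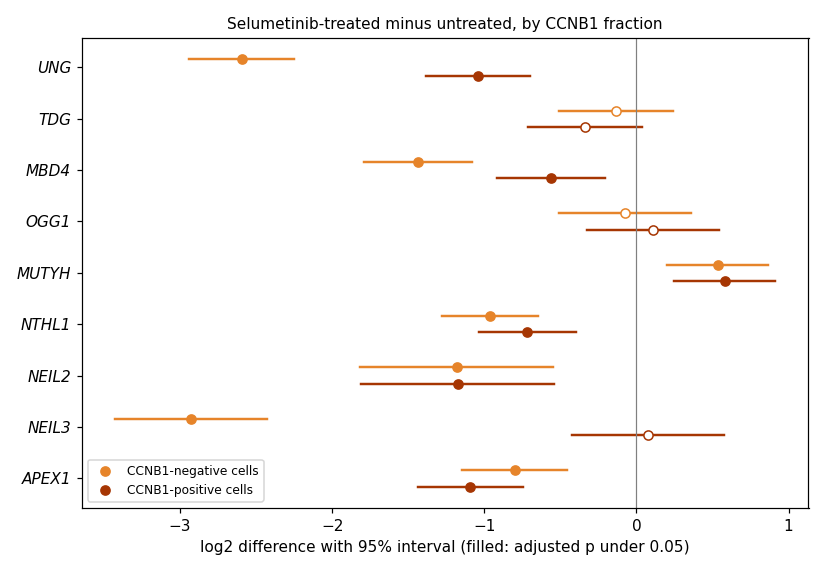
Selumetinib-treated minus untreated log2 values of the 9 members tested, in CCNB1-negative and CCNB1-positive cells. Points are limma estimates, lines their 95% intervals, and filled points passed an adjusted p of 0.05. NEIL3 stands at -2.93 in the negative and 0.08 in the positive fraction, and MUTYH is the single member above 0 in both with filled points.

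OGG1 and MUTYH, the glycosylases of the 8-oxoguanine pathway, were not called lower in either fraction. OGG1 log2 values were 8.83 and 8.53 in untreated CCNB1-negative, 8.67 and 8.39 in untreated CCNB1-positive, 8.75 and 8.46 in treated CCNB1-negative and 8.83 and 8.46 in treated CCNB1-positive libraries. The groups overlapped in every comparison. Its responses were -0.08 (95% interval -0.51 to 0.36, adjusted p = 0.74) and 0.11 (-0.32 to 0.54, adjusted p = 0.65). CAMK1, on the opposite strand, covers 24.9% of the OGG1 exon bases, and its own log2 values, between 3.45 and 5.79, were far below those of OGG1. TADA3, also on the opposite strand, shares 4.08% of these bases, and its log2 values, between 9.73 and 10.32, were above those of OGG1. The TADA3 responses were -0.24 and -0.25 (limma adjusted p = 0.19 and 0.18). Whether the counting of these directional libraries used the strand was not stated.

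MUTYH log2 values were 9.37 and 9.23 in untreated CCNB1-negative, 9.66 and 9.37 in untreated CCNB1-positive, 9.80 and 9.87 in treated CCNB1-negative and 10.15 and 10.05 in treated CCNB1-positive libraries. All treated libraries lay above all untreated ones. The rise was 1.45-fold in CCNB1-negative cells (0.53, SE 0.16, adjusted p = 0.0067) and 1.49-fold in CCNB1-positive cells (0.58, SE 0.16, adjusted p = 0.0049). Relative to the median of all genes tested, the MUTYH differences were 0.48 and 0.41. The first missed the threshold without untreated CCNB1-negative replicate 2 (0.46, adjusted p = 0.057) and the second without untreated CCNB1-positive replicate 2 (0.44, adjusted p = 0.082). TOE1, on the opposite strand, shares 7.78% of the MUTYH exon bases and fell by 2.02 and 0.95 log2 units in the 2 fractions. A further gene on the same strand, not in the table, shares 34.1% of the MUTYH exon bases, and their reads cannot be told apart there.

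NTHL1, which removes oxidized pyrimidines, fell in both fractions. The libraries gave log2 values of 10.50 and 10.57 in untreated CCNB1-negative, 10.40 and 10.51 in untreated CCNB1-positive, 9.62 and 9.52 in treated CCNB1-negative and 9.62 and 9.85 in treated CCNB1-positive libraries. Treated and untreated libraries did not overlap, while the fractions overlapped within each treatment. NTHL1 was 1.95-fold lower in CCNB1-negative cells (-0.96, SE 0.15, adjusted p = 4.2e-05) and 1.64-fold lower in CCNB1-positive cells (-0.72, SE 0.15, adjusted p = 0.00077). The responses differed by 0.25 (95% interval -0.20 to 0.69, adjusted p = 0.53).

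The 3 NEIL genes, relatives of bacterial Fpg and Nei, each followed another course. NEIL1 rested on few reads, with 7 and 1 in untreated CCNB1-negative, 4 and 2 in untreated CCNB1-positive, 27 and 21 in treated CCNB1-negative and 33 and 15 in treated CCNB1-positive libraries. Every treated library had more NEIL1 reads than every untreated one. The ratio of summed reads, corrected for depth, was 9.24 (95% interval 4.33 to 22.6, counting error only) in CCNB1-negative and 10.8 (4.61 to 30.8) in CCNB1-positive cells. Without a filter on low values, the NEIL1 log2 differences were 3.65 and 3.32. They are given as values only, since untreated libraries held 1 to 7 reads. The ratio of CCNB1-positive to CCNB1-negative cells was 0.670 (0.192 to 2.20) untreated and 0.783 (0.514 to 1.19) with selumetinib. MAN2C1, on the opposite strand, shares 26.4% of the NEIL1 exon bases and was itself higher with selumetinib by 1.04 (adjusted p = 7.0e-05) and 0.46 (adjusted p = 0.027). Its log2 values were between 9.82 and 11.03 against 0.33 to 5.40 for NEIL1. Untreated libraries held at most 7 NEIL1 reads each, so no more than 7 MAN2C1 reads can have been counted for NEIL1 there. The methods name a directional library kit, but whether the counting used the strand was not stated.

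NEIL2 log2 values were 6.90 and 6.82 in untreated CCNB1-negative, 7.38 and 7.38 in untreated CCNB1-positive, 6.08 and 5.29 in treated CCNB1-negative and 6.26 and 6.15 in treated CCNB1-positive libraries. The untreated libraries lay above all treated ones. NEIL2 was 2.27-fold lower in CCNB1-negative cells (-1.18, SE 0.30, adjusted p = 0.0024) and 2.26-fold lower in CCNB1-positive cells (-1.17, SE 0.30, adjusted p = 0.0032), and the responses differed by 0.01 (95% interval -0.89 to 0.90). These values rest on 23 to 166 reads per library. The fraction differences, 0.52 untreated (adjusted p = 0.51) and 0.52 treated (adjusted p = 0.22), did not pass, although the treated one reached 0.92 (adjusted p = 0.035) without treated CCNB1-negative replicate 1.

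NEIL3, a glycosylase known for expression in proliferating cells and for unhooking crosslinks at replication forks, was the member with the largest difference between fractions. Its log2 values were 8.30 and 7.95 in untreated CCNB1-negative, 8.84 and 8.84 in untreated CCNB1-positive, 5.46 and 4.93 in treated CCNB1-negative and 8.76 and 9.07 in treated CCNB1-positive libraries. The treated CCNB1-negative libraries, with 28 and 18 reads, lay far below the other 6, and the treated and untreated CCNB1-positive libraries overlapped. NEIL3 fell 7.62-fold with selumetinib in CCNB1-negative cells (-2.93, SE 0.23, adjusted p = 1.0e-07). In CCNB1-positive cells the response was 0.08 (95% interval -0.42 to 0.57, adjusted p = 0.79). Treated CCNB1-positive cells held 13.2-fold more NEIL3 than treated CCNB1-negative cells (3.72, SE 0.23, adjusted p = 3.4e-08), whereas the difference in untreated cells was 0.72 (95% interval 0.22 to 1.22, adjusted p = 0.14), which passed when the fractions with the same replicate number were taken as pairs (adjusted p = 0.020). The responses differed by 3.00 (SE 0.33, adjusted p = 3.8e-05).

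APEX1, the main abasic site endonuclease, had the lowest values in treated CCNB1-positive cells. Its log2 values were 11.53 and 11.69 in untreated CCNB1-negative, 11.57 and 11.76 in untreated CCNB1-positive, 11.01 and 10.61 in treated CCNB1-negative and 10.60 and 10.55 in treated CCNB1-positive libraries. All treated libraries lay below all untreated ones. APEX1 was 1.74-fold lower in CCNB1-negative cells (-0.80, SE 0.16, adjusted p = 0.00044) and 2.13-fold lower in CCNB1-positive cells (-1.09, SE 0.16, adjusted p = 5.2e-05). The difference of the responses, -0.29 (95% interval -0.78 to 0.20, adjusted p = 0.50), did not pass. PIP4P1, on the opposite strand, shares 4.88% of the APEX1 exon bases and had log2 values between 8.08 and 9.22. Its selumetinib responses were -0.71 (limma adjusted p = 0.0064) in CCNB1-negative and 0.07 (adjusted p = 0.76) in CCNB1-positive cells.

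Comparing the fractions asks how these genes differ between CCNB1-positive and CCNB1-negative cells, and whether that changes under the drug. In untreated cells 1 of the 9 members, UNG, was called lower in CCNB1-positive cells and 0 were called higher, against 1.51% and 1.36% of all genes, 2.87% in all. With the same-numbered fractions of a treatment as a block, NEIL3 (0.72, adjusted p = 0.020) and MBD4 (-0.36, adjusted p = 0.028) passed there as well, and 1923 genes in place of 408. In treated cells NEIL3 and MBD4 were called higher and 0 members lower, against 13.8% and 7.87% of all genes, 21.6% in all, and with the block TDG also passed, as lower (-0.31, adjusted p = 0.025). The response differed between the fractions for NEIL3, UNG and MBD4, in each with the larger fall in CCNB1-negative cells, and 4.99% of all genes were called in that direction and 0.345% in the other, 5.33% in all. The median of this difference over all genes was 0.11, relative to which NEIL3 stood at 2.89, UNG at 1.44 and MBD4 at 0.76.

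**Figure D3:**
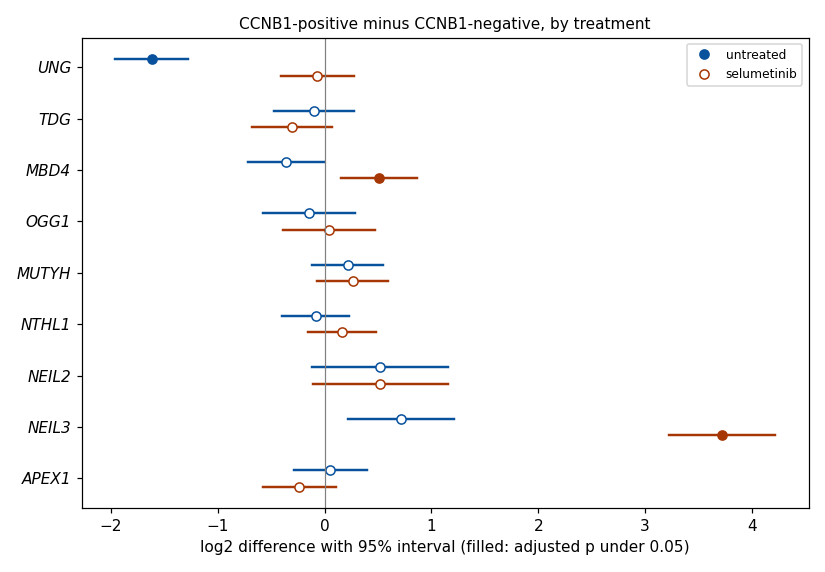
CCNB1-positive minus CCNB1-negative log2 values of the 9 members tested, in untreated and in selumetinib-treated cells. Points are limma estimates, lines their 95% intervals, and filled points passed an adjusted p of 0.05. UNG is at -1.62 untreated and -0.07 treated, and NEIL3 at 0.72 untreated and 3.72 treated.

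UNG and NEIL3 were set beside lists of cell cycle genes that do not contain them. The S phase list (42 genes) had a median selumetinib difference of -3.04 in CCNB1-negative cells, with 41 genes lower, and of -0.90 in CCNB1-positive cells, with 32 lower and 2 higher. In untreated cells its median in the CCNB1-positive against the CCNB1-negative fraction was -0.87, with 26 genes lower, and in treated cells it was 1.18, with 31 higher. UNG, at -1.62 and -0.07 in those fraction comparisons, was lower than the list median in both. The G2/M list (53 genes tested of 54) had median selumetinib differences of -2.77 and -0.55, beside -2.93 and 0.08 for NEIL3. Its median fraction differences were 1.61 untreated, with 50 genes higher, and 3.93 treated, with 52 higher, beside 0.72 and 3.72 for NEIL3. These lists mark cell cycle phases, and the part of a changed mix of phases in the values of UNG and NEIL3 was not tested.

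**Figure D4:**
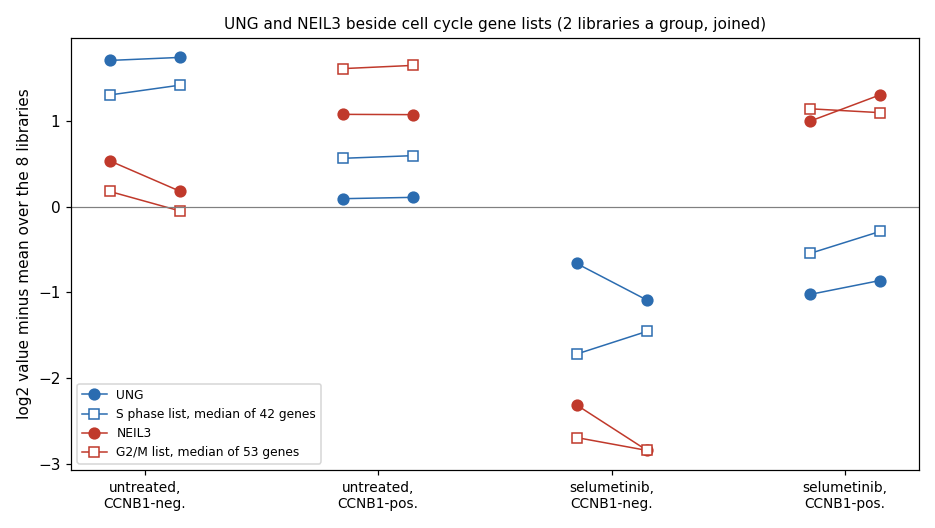
Log2 values minus the mean over the 8 libraries for UNG and NEIL3 (filled circles) and for the median gene of the S phase and G2/M lists (open squares), by group, with the 2 libraries of a group joined. UNG falls from 1.70 and 1.74 in untreated CCNB1-negative cells to between -0.66 and -1.09 in the treated libraries, and NEIL3 drops to -2.31 and -2.84 in treated CCNB1-negative cells alone.

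By the root mean square difference of centred log2 values over the 8 libraries, the genes most like NEIL3 were SPC24 (0.12), TICRR (0.16), FOXM1 (0.18) and SGO1 (0.20). Those most like UNG were MSH6 (0.27), SLBP (0.32), CHAF1B (0.35) and DLGAP1-AS2 (0.36). For NEIL1 they were KCP (0.40), THBS3 (0.45), CLTCL1 (0.48) and IQCN (0.49), at distances that its low counts widen. The points of each pair share the 8 libraries and their depth.

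The remaining genes of the pathway were followed as a list of 22, all of them tested. In CCNB1-negative cells 13 were lower and 7 higher with selumetinib (median -0.65), beside 35.8% and 38.2% of all genes, and the CCNB1-positive fraction had 8 lower and 5 higher genes (median -0.24), beside 27.3% and 38.0%. The 8 lower in both fractions were FEN1, LIG1, LIG3, PARP1, PARP2, DUT, APEX2 and HMCES, and the 5 higher in both were SMUG1, POLL, APLF, TET2 and TET3, while 3704 and 4734 of the 14219 genes were lower and higher in both. The higher counts include APLF, a gene of low level taken up below. In CCNB1-positive cells APEX2 (-0.54), HMCES (-0.45) and POLL (0.42) did not pass without some single libraries of that fraction: untreated replicate 1 for APEX2 and HMCES, untreated replicate 2 for HMCES and POLL, and treated replicate 2 for all 3, with adjusted p up to 0.16, 0.098 and 0.17. Scaled to nuclear reads without MALAT1, APEX2 stood at -0.29 (adjusted p = 0.19) and HMCES at -0.20 (adjusted p = 0.26), HMCES also missed with a pseudocount of 0.1 RPM (adjusted p = 0.0505), and POLL with quantile normalization (adjusted p = 0.054). Among the factors that act after the glycosylase, FEN1, the flap endonuclease, was 14.7-fold lower in CCNB1-negative cells (-3.88, adjusted p = 7.2e-10) and 2.37-fold lower in CCNB1-positive cells (-1.24, adjusted p = 7.3e-06). LIG1, the replicative ligase, differed by -2.19 (adjusted p = 4.4e-08) and -0.70 (adjusted p = 0.0014). PARP1, the strand break sensor, differed by -2.51 (adjusted p = 2.8e-08) and -1.64 (adjusted p = 3.2e-06).

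LIG3, the ligase partner of the scaffold XRCC1, fell in CCNB1-negative (-1.05, adjusted p = 1.1e-05) and CCNB1-positive cells (-1.13, adjusted p = 1.2e-05), with a difference between the responses of -0.08 (95% interval -0.50 to 0.34). XRCC1 itself fell in CCNB1-negative cells (-0.68, adjusted p = 0.0017, and -0.36, adjusted p = 0.070, when scaled to nuclear reads without MALAT1) and stood at 0.06 in CCNB1-positive cells (adjusted p = 0.75). POLB, the gap-filling polymerase, was higher by 0.47 (adjusted p = 0.032) in CCNB1-negative cells, which did not pass without either untreated replicate or treated replicate 2 of that fraction (adjusted p up to 0.17). In CCNB1-positive cells POLB stood at 0.01 (adjusted p = 0.97), and quantile normalization turned it to -0.55 (adjusted p = 0.026). DUT, which removes dUTP from the nucleotide pool, differed by -1.62 (adjusted p = 2.7e-07) and -0.66 (adjusted p = 0.0012). NUDT1, which removes oxidized dGTP, fell in CCNB1-negative cells (-2.07, adjusted p = 2.5e-07) and stood at -0.25 (adjusted p = 0.24) in CCNB1-positive cells.

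SMUG1, the other uracil glycosylase of the list, moved opposite to UNG. Its mean log2 values were 10.41 and 11.35 in untreated and treated CCNB1-negative and 10.29 and 11.18 in untreated and treated CCNB1-positive cells. The rise was 1.92-fold (0.94, adjusted p = 0.00012) and 1.84-fold (0.88, adjusted p = 0.00032). MPG, the alkyladenine glycosylase, did not pass in either fraction (0.00 and 0.25). In CCNB1-positive cells MPG passed as higher when scaled to nuclear reads without MALAT1 (0.50, limma adjusted p = 0.0074). It also passed there with a pseudocount of 0.1 RPM (0.35, adjusted p = 0.038) and with limma-voom on recovered reads (0.35, adjusted p = 0.037). TET2 and TET3, oxidases of 5-methylcytosine that supply TDG with substrate, rose by 1.45 and 1.53 in the negative fraction and by 1.14 and 1.08 in the positive one, with adjusted p of at most 0.0012. APLF averaged below 1 RPM in both untreated groups, with 7 to 25 reads per library, and passed the filter only through the treated groups, so its differences, 2.68 and 1.98, are given as values only. The second stood at 0.65 with quantile normalization and at 1.58 without treated CCNB1-positive replicate 2.

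Between fractions, 1 gene of the 22, FEN1, was lower in untreated CCNB1-positive cells (-0.75, adjusted p = 0.0093), and it did not pass without untreated CCNB1-negative replicate 2 or either untreated CCNB1-positive library (adjusted p up to 0.091). Of all genes tested, 1.51% were called lower and 1.36% higher between untreated fractions. In treated cells 8 of the 22 were higher and 2 lower, beside 13.8% and 7.87% of all genes. The responses differed for 7 of the 22, all with the larger fall in CCNB1-negative cells, and FEN1 had the largest difference, 2.64 (adjusted p = 4.2e-06). Over all genes, 4.99% were called in that direction and 0.345% in the other. For comparison, the 8 mismatch repair genes held 5 lower and 2 higher in CCNB1-negative cells (median -0.98), beside 35.8% and 38.2% of all genes. In CCNB1-positive cells they held 4 lower and 1 higher (median -0.44), beside 27.3% and 38.0%.

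**Figure D5:**
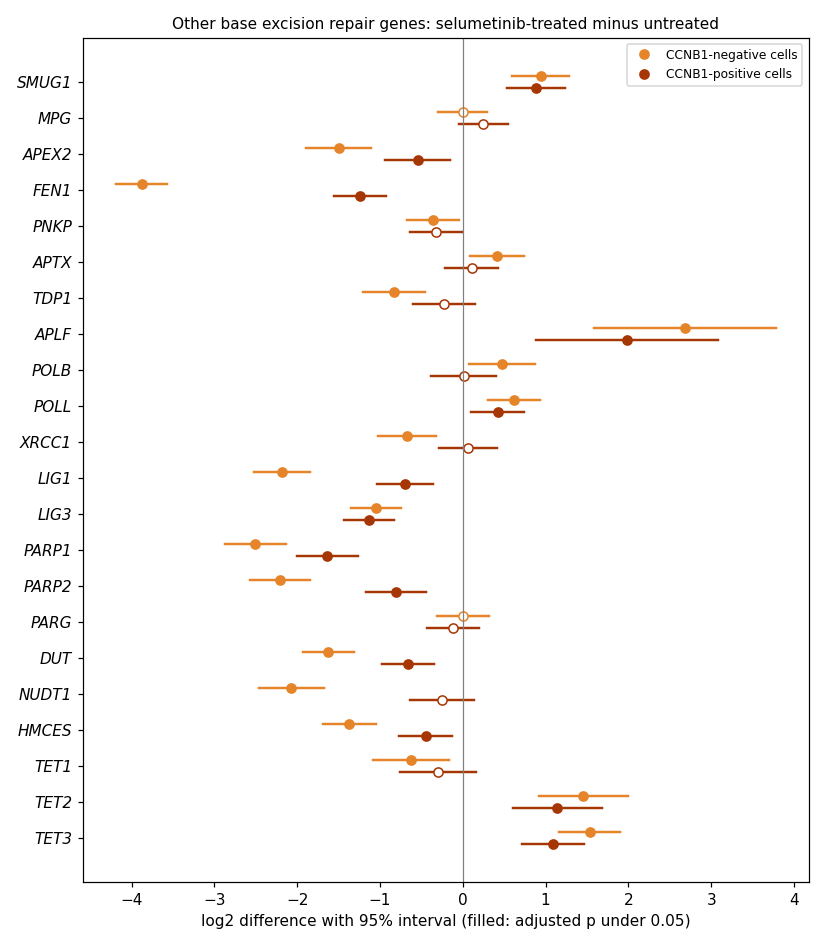
Selumetinib-treated minus untreated log2 values of the 22 other base excision repair genes in both fractions. Points are limma estimates, lines their 95% intervals, and filled points passed an adjusted p of 0.05. FEN1 lies lowest at -3.88 in CCNB1-negative cells, and SMUG1, TET2, TET3, POLL and APLF lie above 0 in both fractions.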

How the data were processed

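Poly(A) RNA of the 8 HT29 samples was sequenced. Per the labels and methods, reads were trimmed by the authors (Trim Galore 0.5.0), aligned to GRCh38 (HISAT2 2.1.0), counted per gene with SeqMonk and tested with DESeq2. The authors deposited log2 values of reads after scaling every library to the largest one, with genes without a read at 0.9 reads. All 8 value columns were used. The methods name a directional library kit. Whether the gene counts used the strand of the reads, and which annotation release they used, is not stated.

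Groups follow the sample descriptions. Reads were recovered from the log2 values (within 0.01 reads) and give the depth, and intervals cover counting error only. Genes averaging at least 1 RPM over the 8 libraries were fitted with limma 3.58.1 (mean-variance trend, 1 coefficient per group, two-sided, R 4.3.3), with p-values adjusted by Benjamini-Hochberg. The design allowed for several units, and its log2 branch was used. Replicates differed beyond sampling noise (chi-square per gene 15.6 to 30.2). Each library was counted as a sample of its own, although this spread does not show that the libraries are independent. Levels per kb use merged GENCODE 44 exons within the deposited gene span. The members and all lists were chosen with earlier results of these data known. All 10 members and genes of the 22-gene list may be named, with the 4 genes most like NEIL3, NEIL1 and UNG, the 3 members with the widest range. EGR1, CCNB1 and genes overlapping a member were named after their values were seen. Promoters came from RefSeq, matched by symbol, for 9 members. On simulated reads for 14820 genes, changes were planted in 200 genes, in the treated CCNB1-negative libraries only, with 1 dispersion for all genes. There 62% of 2-fold and 98% of 4-fold changes were recovered, and 12 of 172 calls were false. In the data 74.1% of genes were called in that comparison, so these rates do not carry over to it. Alternatives were other thresholds, filters, scalings and pseudocounts, voom, blocks, fewer groups, and leaving out each library. Python 3.11.15, pandas 2.3.3, numpy 2.4.6, scipy 1.17.1 and matplotlib 3.10.9 were used.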

Additional observations from a re-analysis of the deposited data

Results flagged for a closer look

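The selumetinib response differed between CCNB1-negative and CCNB1-positive cells, by a limma test of the difference itself over all genes, for 3 members and 7 other base excision repair genes. On the log2 scale, CCNB1-positive minus CCNB1-negative, the difference was 3.00 for NEIL3 (adjusted p = 3.8e-05), 1.55 for UNG (adjusted p = 0.00052) and 0.87 for MBD4 (adjusted p = 0.046). Among the other genes it was 2.64 for FEN1 (adjusted p = 4.2e-06), 1.82 for NUDT1 (adjusted p = 0.00041), 1.48 for LIG1 (adjusted p = 0.00068), 1.40 for PARP2 (adjusted p = 0.002), 0.96 for DUT (adjusted p = 0.011), 0.95 for APEX2 (adjusted p = 0.049) and 0.92 for HMCES (adjusted p = 0.018). The median over all genes was 0.11, and 4.99% of them were called with a positive and 0.345% with a negative difference, 5.33% in all. The calls of MBD4 and APEX2 were each lost in 7 of the 8 fits without 1 library, that of HMCES in 5 and that of DUT in 3. The groups have 2 libraries each, too few for a check of single outlying libraries.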

How the results depend on the processing

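Directions of all called member differences were kept under each alternative that tested the member, and the calls of UNG and NEIL3 passed in each of those. NEIL2 and NEIL3 were not tested under the 10 RPM filter. With 2-fold as a requirement, the calls among members became 0 higher with 4 lower in the negative fraction, 0 higher with 3 lower in the positive fraction, 1 higher between treated fractions and 2 for the difference of the responses. Among the other base excision repair genes they became 3 higher in the negative fraction, 3 higher with 3 lower in the positive fraction, 0 lower between untreated fractions, 5 higher and 0 lower between treated fractions and 4 for the difference of the responses, and over all genes 6758, 4874, 255 and 908 in the first 4 comparisons. At an adjusted p of 0.01, treated fractions had 1 member higher and 1 other gene lower, the responses differed for 4 other genes, and all genes gave 217 between untreated fractions, 1338 between treated fractions and 426 for the difference of the responses. Quantile normalization gave 3 other genes higher in CCNB1-positive cells, 254 genes in all between untreated fractions and 1 member higher between treated fractions, and turned POLB in CCNB1-positive cells to -0.55. Without a filter on low values, NEIL1 entered on its few reads, and with it the count of members higher was 2 in each fraction. Treated fractions then had 1 member higher and 1 other gene lower. All genes gave 259 between untreated fractions and 496 for the difference of the responses. A 10 RPM filter left 1 member, MBD4, higher between treated fractions, as NEIL3 was not tested. A pseudocount of 0.1 RPM, voom and a fit of only the groups compared each left 1 member higher there, as MBD4 missed the threshold, and the last left 1 other gene lower there. Scaling to nuclear reads without MALAT1 moved the median response of all genes by 0.31 and 0.25, quantile normalization by -0.12 and -0.24, and voom by 0.14 and 0.11.

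With the pair of fractions as a block, calls between untreated fractions became 1 member higher and 2 lower, 2 other genes higher and 4 lower and 1923 of all genes, those between treated fractions 1 member and 4 other genes lower and 6671 of all genes, and the responses differed with 1 other gene lower and for 3850 genes. NEIL3 (0.72, adjusted p = 0.020) and MBD4 (-0.36, adjusted p = 0.028) passed there between untreated fractions. Same-numbered libraries deviated together within a treatment (correlations 0.35 and 0.43) and not across treatments (-0.09 to 0.08). The labels do not say what a shared number marks, so the fits of the results hold no block. The replicate block added TDG in CCNB1-positive cells (-0.34, adjusted p = 0.042).

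Leaving out 1 library gave, for members, 0 to 1 higher in each response, 4 to 5 lower in CCNB1-positive cells and 1 to 3 higher between treated fractions. For the other genes it gave 3 to 5 higher in CCNB1-positive cells, 0 to 1 lower between untreated fractions, 0 to 2 lower between treated fractions and 4 to 9 for the difference of the responses. Over all genes it gave 224 to 455 calls between untreated fractions, 1156 to 4279 between treated fractions and 489 to 1806 for the difference of the responses. These all-gene counts moved by over 1.5 times without untreated CCNB1-negative replicate 1 (263), replicate 2 (229) or untreated CCNB1-positive replicate 2 (224) between untreated fractions, without treated CCNB1-negative replicate 2 (1156) or either treated CCNB1-positive library (1278 and 1621) between treated fractions, and without untreated CCNB1-negative replicate 2 (489), treated CCNB1-negative replicate 1 (1806) or treated CCNB1-positive replicate 2 (497) for the difference of the responses.

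Uncalled values close to 0 changed sign in some fits: 37 of 728 member values and 49 of 1799 of the other genes. The 2 libraries per group and the reads on NEIL1 and NEIL2 limit small differences.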
